A study of Homo sapiens with 11 samples.

Results

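The clustered histone genes are the human genes of the linker histone H1 and of the core histones H2A, H2B, H3 and H4 that lie together on chromosomes 1, 6 and 12 and carry the names HIST1 to HIST4. All probes of the array whose gene name begins with HIST, a cluster number from 1 to 4 and H were taken, which gave 85 probes of 64 genes, among 41000 probes of 30484 gene names. By class they were 6 probes for H1, 23 for H2A, 25 for H2B, 16 for H3 and 15 for H4, and by cluster 66 for HIST1, 12 for HIST2, 5 for HIST3 and 2 for HIST4. All 64 genes were matched to their current RefSeq symbols. The older names of the array are used here.

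The cells were PC-3, a human prostate cancer line, at 24 h after transfection. They were given the transfection reagent without RNA (mock, 4 arrays), the siRNA dsEcad640 (1 array), which was designed against the E-cadherin promoter, or a miRNA duplex: miR-520f (1), miR-520c (1), miR-373 (1), miR-302a (1) or miR-372 (2). The 11 arrays were Agilent 1-colour arrays. The arrays formed 3 sets of 1 slide each. Set 1 was made up of miR-372 sample 4, miR-302a sample 3, dsEcad640 sample 2 and their mock sample 1. In set 2, miR-373 sample 7 and miR-520f sample 6 were run beside mock sample 8. In set 3, miR-520c sample 12 and miR-372 sample 10 were run beside mock samples 9 and 11. The 150 ng of RNA on an array pooled 4 transfections, so how single transfections vary cannot be seen, and p-values measure only the spread between these arrays. The mock cells received no duplex, so a response to any duplex and a response to the seed cannot be told apart in a comparison with mock.

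Most clustered histone genes are replication-dependent. Their mRNAs rise in S phase, when new DNA has to be packed into nucleosomes, and they end in a conserved stem-loop bound by SLBP instead of a poly(A) tail. A few of them, such as HIST1H2BK, HIST1H2BD, HIST1H2AC, HIST1H1C and HIST2H2BE, are also made as longer, polyadenylated mRNAs, which are known from cells that have left the cell cycle. The Quick Amp labelling of these arrays starts from an oligo-dT primer, so the signals weight polyadenylated RNA. In RNA of whole cultures, fewer cells in S phase and less RNA per cell cannot be told apart.

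The seeds are shown because they define the comparison. All duplexes but miR-520f share 1 seed and are named common-seed duplexes here, with 6 arrays in all. The mature strands of the miRNAs, from RefSeq on GRCh38, are given 5′ to 3′ with bases 2 to 8, the seed, in capitals.
hsa-miR-302a-3p: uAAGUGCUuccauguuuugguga
hsa-miR-372-3p: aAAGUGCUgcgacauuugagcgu
hsa-miR-373-3p: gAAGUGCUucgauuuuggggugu
hsa-miR-520c-3p: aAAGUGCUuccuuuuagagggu
hsa-miR-520f-3p: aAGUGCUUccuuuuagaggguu
The first 4 share the seed AAGUGCU. The seed of miR-520f, AGUGCUU, is the same run of bases moved by 1 position.

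Promoter elements of the H2A and H2B genes are shown because these classes, which share promoters, are compared below. Within 250 bases before to 50 bases after the start of the gene, the octamer ATTTGCAT or its reverse complement ATGCAAAT was found for 13 of 17 H2B genes (76.5%), 11 of 14 H2A genes (78.6%), 1 of 10 H3 genes and none of 6 H1 or 12 H4 genes, against 2.19% of all 27305 genes with a promoter in the table. The octamer is a binding element of the factor POU2F1. CCAAT or ATTGG was found for all 6 H1, 14 H2A, 17 H2B and 10 H3 genes but for 3 of 12 H4 genes (25%), against 39.7% of all genes. TATAAA or TTTATA was found for 70.6% of H2B and 71.4% of H2A genes, against 14.0% of all. Windows of 30 bases from RefSeq (GRCh38, gene strand, 5′ to 3′) carry the octamer in capitals.
HIST2H2BE, chr1:149886707-149886736, minus strand: gagccctaATTTGCATaaggtggttataaa
HIST1H2BK, chr6:27146883-27146912, minus strand: ttcaccttATTTGCATgagaggtcctatat
HIST1H2BM, chr6:27814966-27814995, plus strand: tactcctaATTTGCATaataacatttaaat
HIST1H2BF, chr6:26199397-26199426, plus strand: atcacctaATTTGCATaccacagggcacac
HIST1H2AD, chr6:26199391-26199420, minus strand: cctgtggtATGCAAATtaggtgattctagc
The last 2 windows show the same octamer read from both strands, since HIST1H2BF and HIST1H2AD start 223 bases apart in opposite directions. These letters are a description and not measured sites.

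Each log2 processed signal was set against the 75th percentile of its array, and this value is called the level below. A probe was tested when the scanner software marked it as well above background on 6 arrays or more of the 11. Of the 85 histone probes, 74 of 59 genes passed, and 68 were above background on all 11 arrays. The passing probes were 3 for H1, 22 for H2A, 21 for H2B, 15 for H3 and 13 for H4. The 11 that did not pass included HIST1H1A, HIST1H1B and HIST1H1T, both probes of HIST4H4, and HIST1H2BA. HIST1H1T and HIST1H2BA are known as testis forms of H1 and H2B. One probe each of HIST1H2AK, HIST1H2BJ, HIST1H2BN, HIST1H3G and HIST3H2BB also did not pass, while each of these genes had another probe that did. For 4 of the 11, the only array above background was miR-372 sample 4.

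On miR-372 sample 4, 88.1% of all probes were well above background, compared with 54.4% to 72.9% elsewhere. KRT8, KRT18 and KRT19, keratins of epithelial cells, were above background on all 11 arrays, and both probes of PTPRC, a marker of blood cells, were above background on that array only. COL1A1, PECAM1 and 1 of 3 KLK3 probes were above background on 11 arrays.

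With the set as a block, limma found 0 of the 74 histone probes changed between the common-seed and the mock arrays at an adjusted p under 0.05, when 4.19% of all 27118 tested probes were called. At an unadjusted p under 0.05 there were 11 of 74 (1 higher and 10 lower), against 21.1% of all probes. The median log2 fold change was -0.02 over the histone probes and 0.03 over all probes. For 61 of the 74 probes the change was within 0.25 of 0, against 17470 of all 27118 probes, and the whole range of the 74 was -1.06 to 0.46. The median standard error was 0.10 for the histone probes and 0.14 for all probes. The comparison of miR-520f with mock rests on 1 array, assumed to vary like the arrays of the other groups. There, 0 of 74 were called when 0.658% of all 27070 tested probes were, and 1 of 74, HIST1H4A, had an unadjusted p under 0.05, against 12.4% of all probes.

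**Figure D1:**
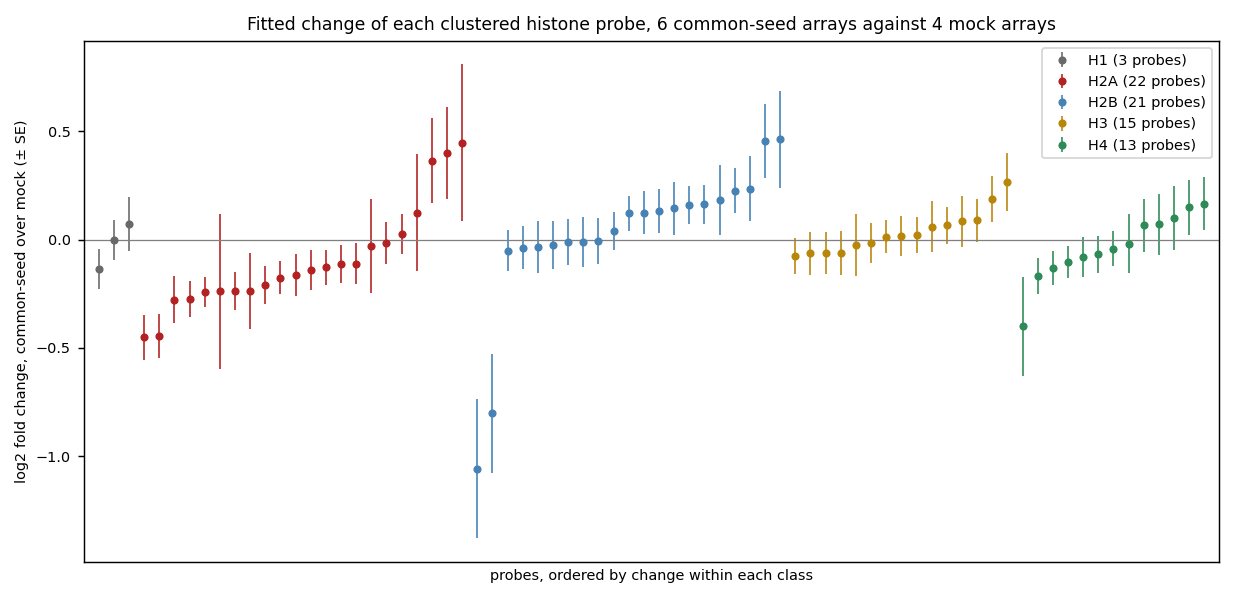
Log2 fold change of the common-seed over the mock arrays with its standard error, for the 74 tested histone probes ordered by change within each class (x axis). The H2A probes lie mostly below 0 (17 of 22), and the lowest values of all, -1.06 and -0.80, belong to a pair of H2B probes, both of HIST2H2BE.

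Each duplex was also compared with mock by itself, in a fit that gave every condition its own mean and in which only the mock and the miR-372 arrays measure the spread. No probe of any gene was called at an adjusted p under 0.05 for any duplex in this fit. At an unadjusted p under 0.05, 9 of 74 histone probes passed for miR-520c (17.0% of all probes), 3 for miR-372 (9.54%) and 2 for miR-520f (7.54%). There were 0 for dsEcad640 (7.81% of all probes), miR-302a (3.92%) and miR-373 (3.58%). The median difference of the 74 probes from the mock mean of the own set was -0.13 for dsEcad640, -0.02 for miR-302a, -0.11 for miR-372 sample 4, -0.04 for miR-373, 0.04 for miR-372 sample 10, -0.03 for miR-520c and -0.0012 for miR-520f. Over all tested probes the same medians lay between -0.095 for miR-520f and 0.15 for miR-372 sample 4. On miR-372 sample 4, 31.1% of the histone probes were above mock, against 65.6% of all probes. A median near 0 does not mean that single probes were near mock, since classes and genes differed in direction, as given below.

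H2A probes were mostly lower than mock, and H2B, which forms a dimer with H2A in the nucleosome, was not. The median log2 fold change of the common-seed arrays was -0.15 over the 22 H2A probes, of which 17 were negative, and 0.12 over the 21 H2B probes, of which 12 were positive, when 54.9% of all probes were positive. Without the 2 H2B probes that lie on the strand opposite to their gene, the H2B median was 0.04, with 10 of 19 positive, so the H2B class as a whole was near the median over all probes. For miR-520f it was -0.18 over H2A with 17 negative, and 0.11 over H2B with 20 of 21 positive (18 of 19 without the 2 opposite-strand probes), against 43.1% of all probes. H2B probes were above the mock mean in 18 of 21 for dsEcad640, 17 for miR-302a, 17 for miR-373, 19 for miR-372 sample 10 and 19 for miR-520f, with medians of 0.12, 0.09, 0.08, 0.23 and 0.13. Of all probes, 44.5%, 49.0%, 41.6%, 53.2% and 39.5% were above the mock mean on these arrays. On miR-372 sample 4 the split of H2B was 11 above and 10 below, and on miR-520c 7 above and 14 below, with medians of 0.01 and -0.06, which became -0.03 and -0.09 without the opposite-strand probes. Of all probes, 65.6% were above the mock mean on miR-372 sample 4 and 54.4% on miR-520c. H2A probes were above the mock mean in 2 to 8 of 22 on each of the 7 duplex arrays, against 39.5% to 65.6% of all probes. The H2A medians ran from -0.25 (miR-372 sample 4) to -0.08 (miR-302a).

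**Figure D2:**
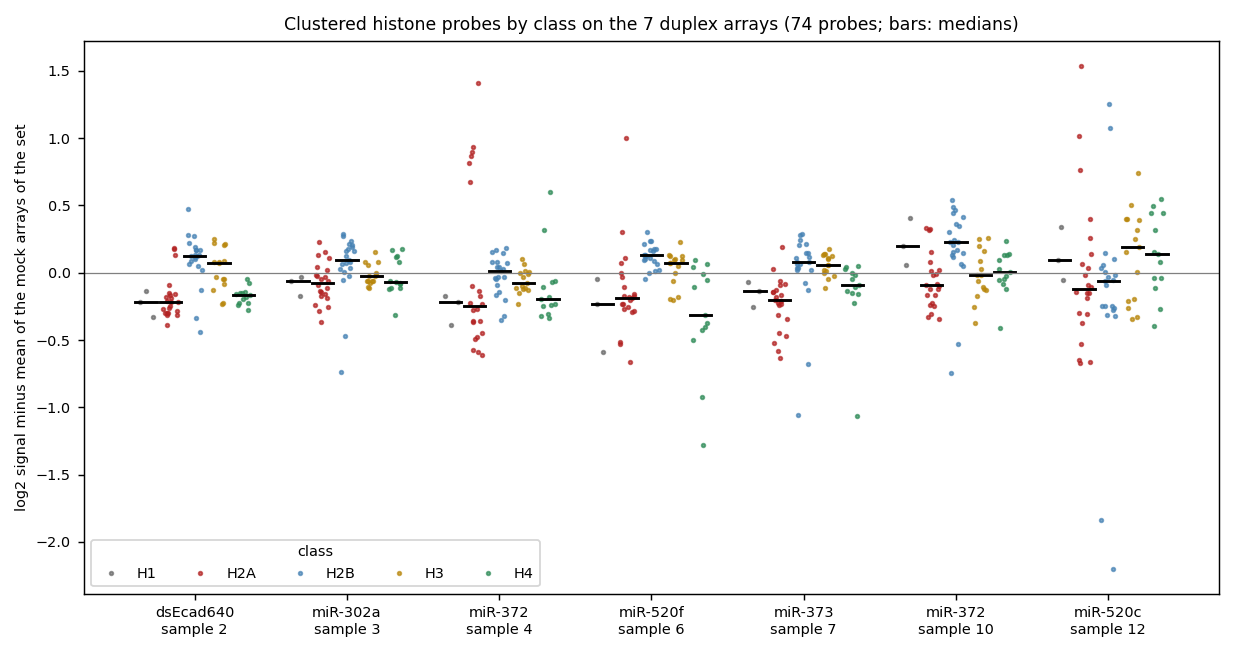
Log2 signal of each tested histone probe minus the mean of the mock arrays of its set (y axis), by class and duplex array (x axis, 74 probes per array), with black bars for class medians. The H2B median lies above the H2A median on all 7 arrays, and the widest spread is on miR-520c sample 12, from -2.20, for a probe not well above background there, to 1.54.

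The 2 mock arrays of set 3 differed from each other in the same way. Mock sample 9 minus mock sample 11 had a median of 0.30 over H2B, with 19 of 21 probes higher (19 of 19 without the opposite-strand probes), and of -0.08 over H2A, with 4 of 22 higher. The H2B levels of the mock arrays also differed between slides, as 20 of 21 probes were lower in set 3 than in sets 1 and 2, with a median difference of -0.47, while all 3 H1 probes were higher there, by a median of 0.80. Class differences of the size seen with the duplexes thus occurred among mock arrays, and their part in the results was not tested. In 21 alternative computations of the common-seed comparison the H2A median lay between -0.21 and -0.12, and the median of all 21 H2B probes between 0.06 and 0.21. Without the opposite-strand probes, a choice made after seeing the data, the H2B median lay between -0.01 (without mock sample 11) and 0.14. The probes of 1 class can share transcripts, since the coding regions of these genes are nearly identical, so the counts are not of independent measurements.

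Many H2A and H2B genes start next to each other and are transcribed in opposite directions from a shared promoter. Among the tested genes, 9 such pairs were found on GRCh38, with starts 194 to 248 bases apart. In the common-seed comparison the H2B gene had the higher log2 fold change in 6 of 9 pairs, with a median difference of 0.30. Of these 6, HIST1H2AD and HIST1H2BF were farthest apart, at -0.45 and -0.03, for which the octamer window is shown above. For HIST1H2AE and HIST1H2BG the values were -0.24 and 0.12, and for HIST3H2A and HIST3H2BB -0.21 and 0.13. The 3 pairs with the higher H2A gene were HIST1H2AC with HIST1H2BC, HIST1H2AG with HIST1H2BJ, and HIST2H2AC with HIST2H2BE. Each of these pairs held a gene whose probes disagreed, so its order depends on the averaging. HIST1H2AC had probes at 0.40 and -0.24, with HIST1H2BC at 0.04. HIST1H2AG had probes at 0.45 and -0.13, with HIST1H2BJ at -0.04. HIST2H2BE had probes at 0.12, -0.80 and -1.06, with HIST2H2AC at -0.06. Among the 6 pairs with the higher H2B gene, the order of HIST1H2AM and HIST1H2BO also depends on the averaging. HIST1H2AM had probes at -0.24 and -0.03, with HIST1H2BO at -0.05. For miR-520f the H2B gene was higher in 8 of 9 pairs (median 0.27). Between mock samples 9 and 11 it was also higher in 8 of 9, with a median of 0.28.

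The H2A genes with the lowest adjusted p were HIST2H2AA3 and HIST1H2AD. Probe A_23_P103981 of HIST2H2AA3 (hg18, chromosome 1, 148089729 to 148089785) had levels of 4.09, 4.12, 4.21 and 4.31 on mock samples 1, 8, 9 and 11. It had 3.91 for dsEcad640, 3.72 for miR-302a, 3.51 and 3.93 for miR-372 samples 4 and 10, 3.54 for miR-373 and 3.73 for miR-520c. All 6 common-seed arrays were therefore below all 4 mock arrays, whereas miR-520f, at 4.20, lay among the mock arrays. How many of all probes separate the groups in this way was not counted. On all 6 common-seed arrays, 11.6% of all probes were below the mock mean of the set and 16.5% above it. Counts of 6 of 6 arrays here and below are to be read against these shares. The log2 fold change was -0.44 ± 0.10 (SE), 1.36-fold lower, with an adjusted p of 0.0534 by limma. Under miR-520f it was 0.14 ± 0.19 (adjusted p = 0.859), and the difference of these changes, 0.59 ± 0.19, had an adjusted p of 0.475. The second probe, A_23_P309381, lies 477 bases away and was at -0.28 ± 0.11 (adjusted p = 0.198), with lower levels than mock on 6 of 6 arrays. This gene lies in a duplicated stretch of chromosome 1, so the signals of its copies cannot be told apart.

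Probe A_23_P428184 of HIST1H2AD (chromosome 6, 26307062 to 26307121) was at 2.66, 2.48, 2.76 and 2.77 on mock samples 1, 8, 9 and 11. On the common-seed arrays it was at 2.40 for dsEcad640, 2.38 for miR-302a, 2.07 and 2.42 for miR-372 samples 4 and 10, 2.03 for miR-373 and 2.10 for miR-520c. The groups did not overlap, and as above the share of all probes that do the same was not counted. Both probes were picked for their low adjusted p in this comparison, which favours such a separation. On miR-520f the HIST1H2AD probe was at 2.45, next to its own mock. The log2 fold change was -0.45 ± 0.10 (1.37-fold lower, adjusted p = 0.0541), and -0.03 under miR-520f. Both probes passed in some other computations of the same comparison. They were called after quantile normalization (4.65% of all probes called), with normexp (5.25%), with the set as a random block (5.48%) and with the filter at 11 arrays (9.78%), with adjusted p between 0.0278 and 0.0438. In the authors' table (9.38% called) HIST1H2AE, HIST2H2AB and HIST1H2AM joined them, each lower, with adjusted p between 0.0317 and 0.0423.

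**Figure D3:**
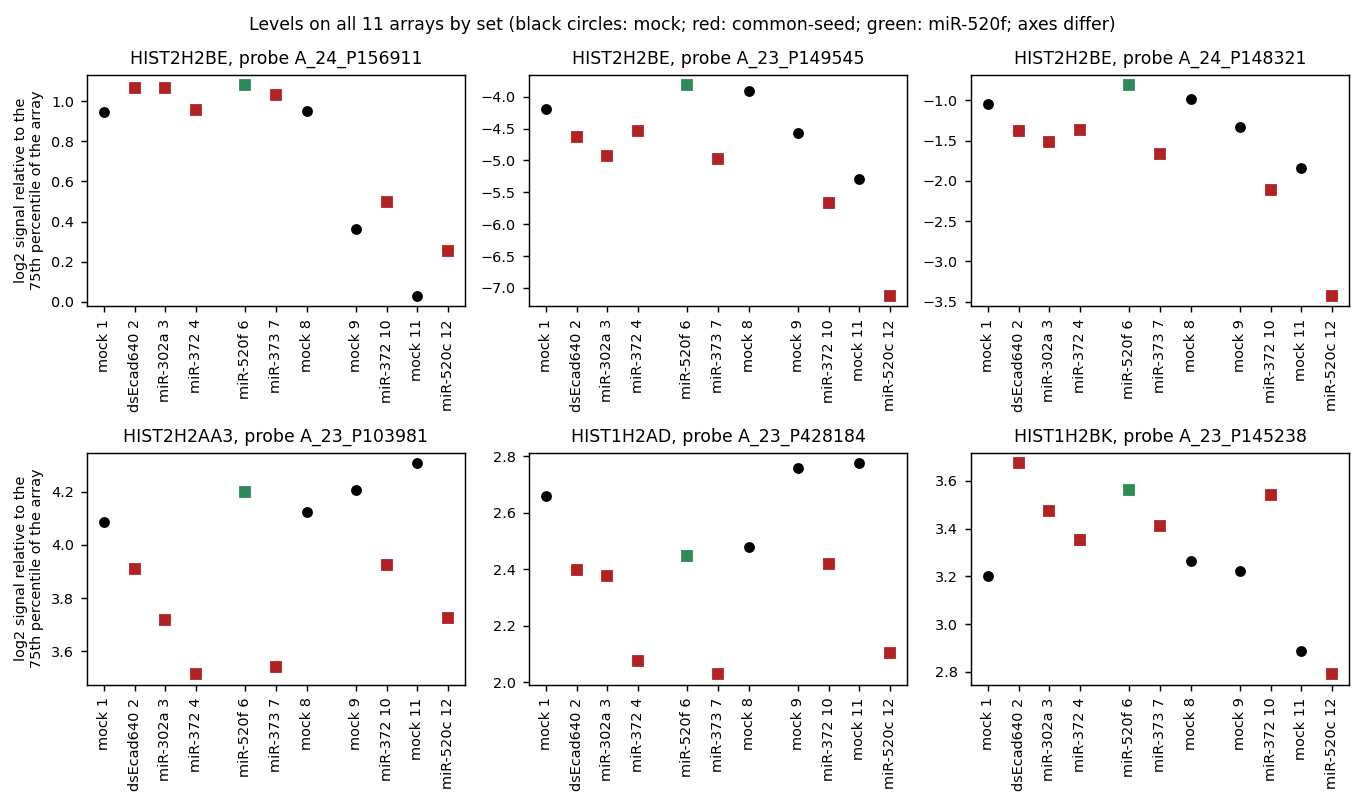
Levels (y axis, log2 signal against the 75th percentile of its array, one scale per panel) of 6 histone probes on the 11 arrays in their sets (x axis). Black circles are mock, red squares the common-seed duplexes and the green square miR-520f. HIST2H2AA3 and HIST1H2AD, picked for their low adjusted p in this comparison, lie below all mock arrays on the 6 common-seed arrays. The middle and outermost probes of HIST2H2BE are lowest on miR-520c sample 12.

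Other H2A probes were lower on the common-seed arrays without passing the test. HIST1H2AE was below its mock mean on 6 of 6 arrays, with differences of -0.31 to -0.17, a log2 fold change of -0.24 ± 0.07 and an adjusted p of 0.0966. HIST3H2A, the H2A gene of the small HIST3 cluster, was at -0.21 ± 0.09 (adjusted p = 0.220) and lower on 6 of 6 arrays. HIST2H2AB had 2 probes 32 bases apart that disagreed, at -0.27 ± 0.08 for A_24_P68631 and 0.36 ± 0.20 for A_23_P343927. HIST1H2AC, which is also made as a polyadenylated mRNA, had probes 14419 bases apart at 0.40 ± 0.21 for A_23_P372860 and -0.24 ± 0.17 for A_23_P167983. On miR-520c these were at 1.02 and -0.67. In all, 9 of the 14 genes with more than 1 tested probe had probes of opposite sign.

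Probes near the background differed from mock in another way than the rest. For 9 dim probes, those with a mean level under -2, the median difference from mock was 0.81 on miR-372 sample 4, with 8 of 9 higher, while it was -0.51 on miR-520f and -0.34 on miR-373. For the other 65 probes the medians on these arrays were -0.13, 0.02 and -0.0013. The dim probes include HIST1H2AA, a testis form of H2A that was the highest under miR-372 by the mean of both arrays (differences of 0.94 and 0.31), and A_24_P414658 of HIST1H2AG, the highest under miR-520c (1.54) and miR-520f (1.00). The HIST1H2AG probe was at -4.92 and -5.95 on the 2 mock arrays of set 3 and was not well above background on miR-373. Its log2 fold change of 0.45 ± 0.36 became 0.15 without miR-520c sample 12 and 0.18 without mock sample 11.

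The largest fold changes among the H2B genes, and among all histone probes, were those of HIST2H2BE. This gene makes a short stem-loop mRNA and a longer polyadenylated one. Its 3 probes lie on the minus strand of chromosome 1 on hg18: A_24_P156911 at 148124654 to 148124713, A_23_P149545 966 bases further along in the direction of transcription, and A_24_P148321 650 bases beyond that. The first probe was at 0.94, 0.95, 0.36 and 0.03 on mock samples 1, 8, 9 and 11, and at 1.06, 1.06, 0.96, 1.03, 0.50 and 0.25 on dsEcad640, miR-302a, miR-372 sample 4, miR-373, miR-372 sample 10 and miR-520c. It was thus slightly higher than its mock mean on all 6 arrays, with a log2 fold change of 0.12 ± 0.10 (adjusted p = 0.531).

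The outermost probe, A_24_P148321, ran the other way. Its levels were -1.04, -0.99, -1.33 and -1.84 on mock samples 1, 8, 9 and 11, and -1.38, -1.52, -1.37, -1.66, -2.12 and -3.43 on the common-seed arrays in the order above. In each set, every common-seed array was below every mock array, and miR-520f, at -0.81, was above the mock array of its set. Of all probes, 11.6% were below the mock mean of the set on all 6 common-seed arrays. That is a weaker condition in set 3, which held 2 mock arrays, and the share below every mock array was not counted. The log2 fold change was -0.80 ± 0.27 (1.74-fold lower), with an adjusted p of 0.142, so that it did not pass the test. It was -0.38 in set 1, -0.67 in set 2 and -1.19 in set 3, and -0.51 without miR-520c sample 12. The middle probe, A_23_P149545, was at -1.06 ± 0.32 (adjusted p = 0.109) with the same order of arrays, and at -0.73 without miR-520c sample 12. It was not well above background on miR-373 and miR-520c, where it was at least 1.52-fold and at least 2.74-fold lower than the mock arrays of the set. Under miR-520f the 3 probes were at 0.15, 0.10 and 0.11, none of which passed.

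HIST1H2BK, one of the H2B genes also made as a polyadenylated mRNA, had levels of 3.20, 3.26, 3.22 and 2.89 on mock samples 1, 8, 9 and 11. It was at 3.67 for dsEcad640, the largest positive difference of a histone probe on that array (0.47), at 3.48 for miR-302a, 3.35 and 3.54 for miR-372, 3.41 for miR-373 and 3.56 for miR-520f. On miR-520c it was at 2.79, below both mock arrays of the set. The log2 fold change was 0.18 ± 0.16 (adjusted p = 0.596). It ran from 0.06 to 0.32 when single arrays were left out, and was 0.32 without miR-520c sample 12. HIST1H2BM was the highest histone probe under miR-302a (0.28) and was at 0.24 ± 0.15 in the common-seed comparison (adjusted p = 0.433).

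The largest positive values of the H2B class came from probes on the opposite strand. Probe A_32_P152348 of HIST1H2BD and probe A_24_P524452 of HIST3H2BB lie on the minus strand, while both genes lie on the plus strand, so they do not read the histone mRNA itself. They were at 0.46 ± 0.17 (adjusted p = 0.175) and 0.46 ± 0.22 (adjusted p = 0.288). On miR-520c the differences from mock were 1.08 and 1.25, and on miR-372 sample 10 they were 0.44 and 0.54, while on the arrays of set 1 they were 0.08 to 0.22 and 0.03 to 0.16. Without miR-520c sample 12 the values were 0.29 and 0.26. The sense probe of HIST1H2BD, A_24_P146211, was at 0.16 ± 0.09 (adjusted p = 0.351) and that of HIST3H2BB at 0.13 ± 0.10. Of the 85 probes, 76 lay on the strand of their gene and 4 on the other, and 5 had no entry to compare. The other 2 of the 4 are those of HIST2H2AA3, for which the build of the array and GRCh38 arrange the duplicated copies differently, so no orientation is given.

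The H3 probes stayed close to mock. Their common-seed changes ran from -0.08 to 0.26, and 14 of 15 were within 0.25 of 0, against 17470 of all 27118 probes. HIST1H3E was the highest at 0.26 ± 0.13 (adjusted p = 0.306), with a difference of 0.74 on miR-520c against -0.00041 on miR-520f. HIST3H3, the testis form of H3, was at 0.01 ± 0.08. Its levels of 6.90, 6.72, 6.10 and 6.18 on mock samples 1, 8, 9 and 11 were the highest of the H3 probes. Which transcripts gave this signal was not tested. On miR-520c the H3 median was 0.19, with 10 of 15 probes above mock (66.7%, against 54.4% of all probes). Differences there ran from -0.35 for HIST1H3I to 0.74 for HIST1H3E.

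The H4 medians had opposite signs on miR-520f and miR-520c. The median of the 13 probes was -0.32 on miR-520f, with 3 (23.1%) above the mock array, and 0.14 on miR-520c, with 8 (61.5%) above the mock mean. Over all probes the medians also had opposite signs, at -0.095 with 39.5% above mock on miR-520f and 0.056 with 54.4% above on miR-520c. Under dsEcad640 all 13 were below mock, with a median of -0.17, when 44.5% of all probes were above mock. On miR-520f, 7 probes were lower by more than 0.25, by the signals as measured, namely HIST1H4A, B, C, D, E, G and L, and the other 6 lay between -0.10 and 0.09. HIST1H4A and HIST1H4G were not well above background on that array, and for the remaining 5 the differences were -0.50 to -0.32. These 7 were chosen after their values were seen. On miR-520c the same 7 had a median difference of 0.44, with 6 of 7 higher than mock, and the other 6 had a median of -0.04. On miR-302a they were at a median of 0.12 (5 of 7 higher) and the others at -0.09 (0 of 6 higher). The same probes also separated the 2 mock arrays of set 3. Mock sample 9 minus mock sample 11 was -0.45 to -0.14 for the 7, with a median of -0.39, and -0.12 to 0.01 for the other 6. A difference of this kind was thus present without a duplex, between the arrays against which miR-520c and miR-372 sample 10 were set, and its part in the results was not tested.

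**Figure D4:**
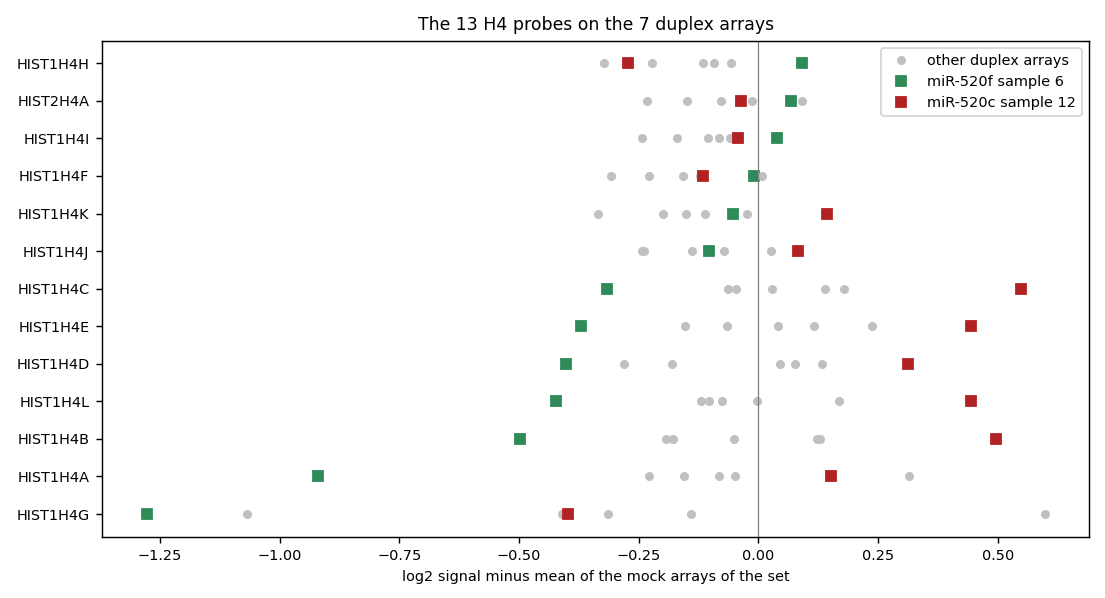
Log2 signal minus the mean of the mock arrays of the set (x axis) for each of the 13 H4 probes (y axis), on miR-520f (green), miR-520c (red) and the other 5 duplex arrays (grey). On miR-520f 7 probes lie at -0.32 or lower, of which HIST1H4A and HIST1H4G were not well above background there, and 6 of these 7 lie above 0 on miR-520c.

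None of these differences passed the test. HIST1H4A had a log2 fold change of -0.82 ± 0.26 under miR-520f (adjusted p = 0.235), and its signal was not well above background on that array, where it was at least 1.27-fold lower than mock sample 8. HIST1H4B, at -0.42 ± 0.28, and HIST1H4C, at -0.25 ± 0.24, had adjusted p of 0.629 and 0.773. The dim probe of HIST1H4G was not well above background on miR-520f or miR-373. It was at least 1.19-fold lower than mock sample 8 on miR-373, and no fold can be given for miR-520f, where the lowest signal above background exceeded the mock level. HIST1H4H, listed among the genes also made with a poly(A) tail, was lower than mock on 6 of 6 common-seed arrays, with a log2 fold change of -0.17 ± 0.08 (adjusted p = 0.294), and at 0.05 under miR-520f. For miR-520f minus common-seed, 0 of 74 histone probes and 16 of all probes had an adjusted p under 0.05, and 3 of 74 an unadjusted p under 0.05 (HIST1H1D, HIST2H2AA3 and HIST1H4A).

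Linker histone H1 binds the DNA between nucleosomes, and 3 of its 6 probes were tested. HIST1H1C, which encodes H1.2, was at 4.26, 4.19, 4.46 and 4.35 on mock samples 1, 8, 9 and 11 and at -0.13 ± 0.09 in the common-seed comparison (adjusted p = 0.470), lower than mock on 5 of 6 arrays. HIST1H1D was at 0.07 ± 0.12 there and at -0.48 ± 0.24 under miR-520f (adjusted p = 0.474). Its differences were 0.41 on miR-372 sample 10 and 0.34 on miR-520c, but -0.59 on miR-520f. HIST1H1E followed the same order with smaller values, 0.20, 0.10 and -0.24. All 3 H1 probes were below mock on every duplex array of sets 1 and 2.

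The genes that make, end and place the histones were compared through 4 lists, whose counts are to be read against the 4.19% of all probes called (580 higher and 556 lower). With 1 or 2 calls each, the lists gave no result about themselves, and the probes called are named as single genes. Of the regulators of histone genes and their mRNA, 28 probes were tested, and 2 rose and 0 fell on the common-seed arrays. CCNE1, the cyclin whose kinase acts on the histone gene activator NPAT, rose by 0.73 ± 0.15 (adjusted p = 0.0408), higher on 6 of 6 arrays. MIZF, now HINFP, a factor that binds H4 promoters, rose by 0.43 ± 0.10 (adjusted p = 0.0471) in 1 of its 2 probes, the other being at 0.34 ± 0.11 (adjusted p = 0.138). The lowest of this list was CDK2, at -0.58 ± 0.37 (adjusted p = 0.428). Its probe is dim, with levels of -4.80 to -1.92, and differed from mock by 0.88 on miR-372 sample 4. The median of the list was 0.08, against 0.03 over all probes. Under miR-520f none of the 28 was called, with CCNE1 at 1.19 (adjusted p = 0.124).

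Of 23 probes of replication-independent histone variants, 1 rose and 0 fell. H1FX, a linker variant, rose by 0.61 ± 0.13 (adjusted p = 0.0484), and the lowest was 1 probe of H2AFV, a form of H2A.Z, at -0.67 ± 0.26 (adjusted p = 0.195), with the other at 0.09 ± 0.13. The lower H2AFV probe is dim, with levels of -4.05 to -2.60. H2AFY, which encodes macroH2A1, was at -1.09 under miR-520f (adjusted p = 0.0341, with the spread of the other groups standing in for that of the 1 array) and at 0.12 on the common-seed arrays. Of 26 probes of histone chaperones, 0 rose and 1 fell. ASF1B, which hands H3 and H4 to the assembly factors, fell by 0.68 ± 0.14 (adjusted p = 0.0435), lower on 6 of 6 arrays. Its relative ASF1A was at -0.92 ± 0.31 (adjusted p = 0.137) in 1 dim probe, with levels of -4.17 to -2.52, and 0.07 ± 0.09 in the other. NAP1L1, which carries H2A and H2B, was at 0.38 ± 0.13 (adjusted p = 0.127). Of 31 probes of S phase genes, CCNE1, which this list shares with the regulators, was the only one called, and the lowest was E2F1 at -0.49 ± 0.16 (adjusted p = 0.124). The medians were 0.17 for the variants, 0.04 for the chaperones and 0.03 for the S phase genes, the last equal to that over all probes at this precision. With single arrays left out, the calls ran from 0 to 3 for the regulators. For the variants, the chaperones and the S phase genes they ran from 0 to 2.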

How the data were processed

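The authors deposited the scanner output of Agilent Feature Extraction 10.5.1.1, in which the processed signal is an intensity with the background subtracted and trends removed within the array, low values replaced by estimates, and no scaling between arrays. They also deposited log2 values normalized by a method not given in the sources used here, which were compared within sets. Probe coordinates are those of hg18, and sequences those of RefSeq on GRCh38. Outlier spots as marked by the software (52 to 209 of 43376 per array) were dropped and the remaining spots of a probe averaged. Their number and signal over background limit the precision.

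The tools were limma 3.58.1 in R 4.3.3, and pandas 2.3.3, numpy 2.4.6 and scipy 1.17.1 in Python 3.11.15. The 6 common-seed, 4 mock and 1 miR-520f arrays entered one limma fit with the set as a block (6 residual degrees of freedom) and Benjamini-Hochberg adjustment over all tested probes. The fit was also run on simulated data with independent noise and larger changes than most seen here, and the outcome is not given. That simulation does not cover shifts shared by a class, such as those between mock arrays. Named probes are up to 10 called, the 5 largest changes each way, the extremes of each duplex and all tested probes of 8 genes made with poly(A) tails, and of each other list its called probes and otherwise its extremes. The members and lists were chosen with earlier results of these data known. One array of set 2 is titled miR-530f and otherwise labelled miR-520f, and was used as miR-520f. Some cell type markers are not reported here.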

Additional observations from a re-analysis of the deposited data

Results flagged for a closer look

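Of 40 groups of values of the 20 named probes, 4 held a sample far from the others, measured by the gap to its nearest neighbour over the range. Chance flags about 1 in 20 groups of independent values that were not selected. Some named probes were chosen as extremes of single duplexes, and some share a gene, so this rate does not apply directly here. On miR-520c sample 12, A_24_P148321 of HIST2H2BE differed from mock by -1.84, when the next lowest common-seed array was at -0.67, and A_32_P152348 of HIST1H2BD by 1.08, when the next highest was at 0.44. The sense probe of HIST1H2BD, A_24_P146211, differed by 0.36 on miR-372 sample 10, next to 0.14. HIST1H2BK had a level of 2.89 on mock sample 11, and of 3.20 on the nearest mock array.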

How the results depend on the processing

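The count of histone probes called in the common-seed comparison, 0, became 2 with the set as a random block, with quantile normalization, with normexp and with the filter at 11 arrays, and 5 in the authors' table. Of all probes, 5.48%, 4.65%, 5.25%, 9.78% and 9.38% were called in these settings, against 4.19% in the main fit. The count of histone probes was 0 to 2 when single arrays were left out: 2 without miR-372 sample 4 and 1 without dsEcad640, in each case of HIST2H2AA3 and, where 2, HIST1H2AD. It was 0 without the block, without the filter, with gene means, and in sets 1 and 3 alone. The share of all probes called is not given for these settings or with arrays left out. For miR-520f the count of histone probes was 0 in all 18 alternatives. The median over the probes of miR-520c moved from -0.026 to -0.088 with quantile normalization, and no other median by array moved beyond the spread between arrays. Of 392 values of the 20 named probes under alternatives, 373 kept sign and call, 13 were newly called and 6 changed sign, none of them a call. The calls of the lists depended on the setting, and are to be read against the same shares of all probes called. Without the block, without the filter, and in sets 1 and 3 alone, all 4 lists had 0. With arrays left out the counts were 0 to 3 for the regulators and 0 to 2 for the variants, the chaperones and the S phase genes. The regulators had 1 with the random block and with gene means. The variants had 2 with quantile normalization and 3 in the authors' table, and the chaperones 2 in both. The S phase genes had 2 with the random block, 3 with normexp, 5 with the filter at 11 arrays and 3 in the authors' table. The cause was not tested. No paired analysis was possible because the sample numbers of the labels are not shared between groups, and the set served as the block. Probes near background limit what can be seen of the 11 untested probes.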
